A study of Mus musculus with 2 samples.

Results

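The genes described here encode the machinery that shortens, decaps and degrades messenger RNA. They were taken from the deposited table by a rule on gene symbols, as the CCR4-NOT subunits (Cnot), the Btg and Tob adaptors, Zfp36l and Pum RNA-binding proteins, Pan2, Pan3 and Parn, the decapping factors (Dcp, Edc4), Xrn1 and Xrn2, the exosome (Exosc, Dis3, Mphosph6) and the nonsense-mediated decay factors (Upf, Smg). The rule itself reads no measured value, but the genes and role groups were chosen with earlier results of these data known. The rule found 52 of the 11262 genes of the table, and 4 further mouse genes with symbols of this kind in the annotation were not analysed here. PB2, the second polar body, is the microcell extruded when the egg completes meiosis after fertilization. The study compared the messenger RNA of PB2 with that of the zygote to look for molecules held in PB2. Both libraries came from untreated C57BL/6 embryos of superovulated females at the late 1-cell stage, whose zona pellucida was removed with acid Tyrode's solution before PB2 was detached by pipetting in trypsin. PB2s were pooled in 1 library and zygotes in the other, and messenger RNA was amplified as full-length cDNA with a single-cell kit.

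A messenger RNA usually begins to decay when its poly(A) tail is shortened, mainly by the CCR4-NOT complex and in part by the Pan2-Pan3 complex. The RNA is then decapped and digested from the 5′ end, or digested from the 3′ end by the exosome, while nonsense-mediated decay removes transcripts on which translation ends too early. In mouse eggs this machinery is known for clearing maternal transcripts around meiotic maturation and fertilization, with Btg4 as the egg's adaptor between CCR4-NOT and its targets.

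Levels are given as TPM, a share of the transcripts of a library adjusted for the length of each gene and scaled to the same total in every library. TPM is a proportion, so the amount of RNA in a PB2 or a zygote cannot be read from it, and fewer transcripts of a gene per cell and a change in the RNA of the whole cell cannot be told apart. There was 1 library per condition. No test was possible and no spread between samples is known, so the differences describe the 2 libraries and nothing more. The read depth behind the values is not given by TPM, which was deposited to 1 decimal, so no counting interval is given. A range after a ratio covers that rounding alone, and where a pair of levels is given for a gene the zygote comes first. The log2 ratio is log2((PB2 TPM + 1)/(zygote TPM + 1)), which understates the change of genes with low TPM, and a gene was called higher in 1 library when the ratio on that scale reached 2-fold. All 15 oocyte markers examined were found in both libraries, at 62.7 TPM or more in the zygote and 99.5 TPM or more in PB2. Of 16 cumulus and granulosa cell markers, 5 were in the table, with a summed level of 81.7 TPM in the zygote against 84.8 in PB2. Most of that sum was Cyp19a1 at 72.2 and 70.9 TPM, and the part of such cells in the results was not tested.

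All 52 decay genes were detected in both libraries, as were 98.9% of the genes of the whole table. Of the 52, 50 reached 1 TPM in both, 96.2% against 84.8% of the whole table. At 10 TPM the numbers were 32 genes and 61.5%, against 44.2% of the table. Smg9 was under 1 TPM in both libraries, and the other 51 genes were compared among 10645 genes. Among the 51, 9 were called higher in PB2, a share of 17.6% beside 18.9% for all genes. Another 2 were called higher in the zygote, 3.92% beside 8.09%. Their median log2 ratio was 0.29 (95% order-statistic interval over genes from 0.05 to 0.57), beside 0.21 for all genes compared. The share called towards PB2 and the median lay near those of the table, and the share called towards the zygote rests on 2 genes. The medians of the role groups ran from -0.24 for the exosome (interval from -0.65 to 0.16) to 0.69 for nonsense-mediated decay (0.02 to 1.19). These intervals overlap, but they run over genes that share the same 2 libraries and are no replicates. They give no error of the libraries, and the difference between the groups was not tested.

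**Figure D1:**
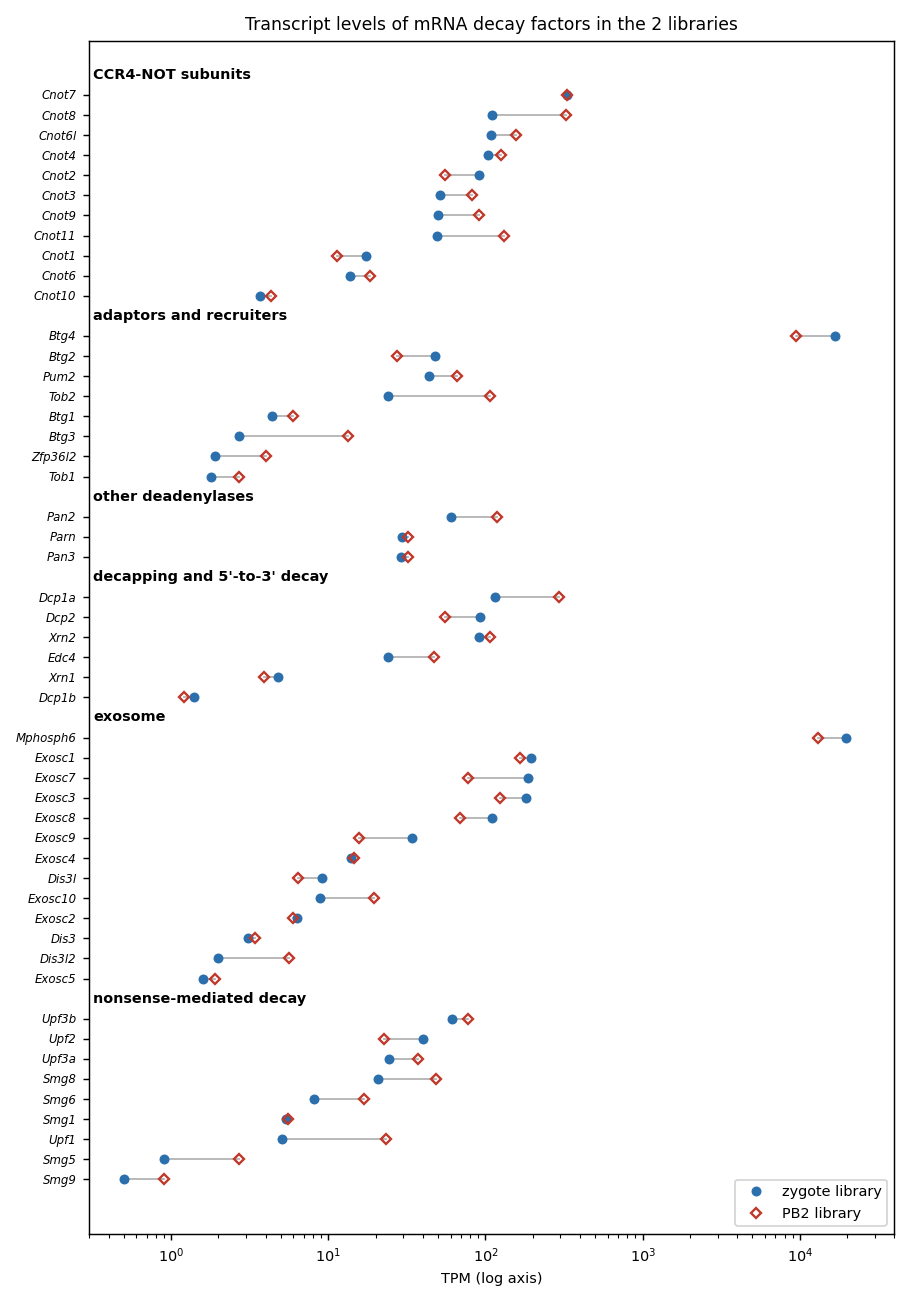
TPM of 50 of the 52 decay genes in the zygote library (filled circles) and the PB2 library (open diamonds), on a log axis, grouped by role and ordered by zygote level. Mphosph6 and Btg4 stand far above the rest, and within the exosome most diamonds lie to the left of the circles.

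Mphosph6 and Btg4 were among the most abundant transcripts of both libraries. Mphosph6 encodes an exosome-associated protein of ribosomal RNA processing and had 19692.7 TPM in the zygote against 13058.8 in PB2, rank 2 and rank 3 of all genes. Btg4 had 16642.4 TPM in the zygote, rank 4, and 9470.9 TPM in PB2, rank 9. Both were lower in PB2 than in the zygote and neither was 2-fold apart, with log2 ratios of -0.59 and -0.81. Together they made up 3.63% of a full library's TPM in the zygote and 2.25% in PB2, while the other 50 decay genes made up 0.243% and 0.301%. The sum over all 52 genes was 1.52-fold higher in the zygote (log2 ratio of the sums -0.60), and without these 2 genes it was 1.24-fold higher in PB2 (0.31). Of the 50-base stretches of the Mphosph6 transcript, 10.1% also occur in Gm11448, a gene not analysed here, so that reads of these could not be told apart.

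The 3′ ends of the abundant decay transcripts were examined because maternal transcripts are stored with short tails and lengthened again through the cytoplasmic polyadenylation element, the binding site of CPEB proteins. The element was searched on the transcript strand as TTTTAT or TTTTAAT in the last 100 bases of the 3′ UTR of the longest protein-coding transcript in GENCODE M21 (GRCm38). It was present in 11 of the 51 decay genes, 21.6%, beside 19.7% of 10509 genes compared that have a 3′ UTR. Among the 10 most abundant decay genes 5 carried it, and the 30 bases around each element are given 5′ to 3′ as read on the transcript, with the element in capitals. They lie in exonic 3′ UTR sequence at chr9:51119797-51119826 (plus strand) for Btg4, chr8:40493038-40493067 (minus strand) for Cnot7, chr11:58118545-58118574 (plus strand) for Cnot8, chr14:30526985-30527014 and chr14:30527009-30527038 (plus strand) for Dcp1a, and chr4:45316625-45316654 (minus strand) for Exosc3.
Btg4: agataaatccctTTTTATgtctttttaaaa
Cnot7: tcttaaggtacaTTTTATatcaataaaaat
Cnot8: tattatttatgtTTTTAATtttgtaaaata
Dcp1a, first element: tttcatcctaaaTTTTATatgtttgcaaat
Dcp1a, second element: gcaaatatatttTTTTAATaaaatttcaaa
Exosc3: aattataaaaacTTTTATataataaacttt

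The polyadenylation hexamer AATAAA stands within the window of Cnot7, Exosc3 and the second element of Dcp1a, and the elements end between 14 and 61 bases before the annotated transcript end. The 5 genes did not share a direction, with log2 ratios of 1.55 for Cnot8, 1.34 for Dcp1a, 0.01 for Cnot7, -0.55 for Exosc3 and -0.81 for Btg4. Over the decay genes the median log2 ratio was 0.05 with the element and 0.36 without it, and over all genes compared it was 0.24 and 0.21. A match of these letters is a description and not a proven site, the ends used in eggs may differ from the annotation, and tail length was not measured in these libraries. The Pumilio element TGTANATA was found in the 3′ UTR of 29.4% of the decay genes and 27.0% of all genes, and the AU-rich element core TATTTAT in 31.4% and 30.4%.

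Within CCR4-NOT, the catalytic pair Cnot7 and Cnot8 differed in balance between the libraries. Cnot7, a deadenylase subunit, had 329.5 TPM in the zygote against 331.3 in PB2, the highest level of the complex in both libraries. Cnot8, its close paralogue, had 110.3 TPM in the zygote against 324.3 in PB2, which is 2.94-fold higher in PB2 with a log2 ratio of 1.55. Cnot8 therefore made up 25.1% of the Cnot7 and Cnot8 total in the zygote and 49.5% in PB2. Of the 50-base stretches of Cnot8, 9.85% occur also in Gm18860, which was not analysed here.
The other catalytic pair kept its balance. Cnot6l had 108.9 TPM in the zygote against 157.2 in PB2, and its paralogue Cnot6 had 13.7 and 18.3 TPM. Cnot6l was 88.8% of the pair in the zygote and 89.6% in PB2, and neither gene was 2-fold apart.

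The non-catalytic subunits of CCR4-NOT spread in both directions. Cnot11, which binds the N-terminal part of the scaffold together with Cnot10, had 49.2 TPM in the zygote against 130.6 in PB2, 2.65-fold higher in PB2 with a log2 ratio of 1.39. Cnot10 itself had 3.7 and 4.3 TPM, the lowest levels of the complex. The scaffold Cnot1 had 17.3 TPM in the zygote against 11.3 in PB2, and Cnot7 exceeded it 19.0-fold in the zygote and 29.3-fold in PB2. Of the Cnot1 transcript, about 10% of 50-base stretches occur in other genes, among them Gm6158.
Cnot2 and Cnot3 form the NOT module of the complex. Cnot2 had 90.7 TPM in the zygote against 55.4 in PB2, a log2 ratio of -0.70, while Cnot3 had 51 and 82.4 TPM, a log2 ratio of 0.68. The Cnot3 value is uncertain: its sign turned with the trend on GC content removed (-0.14), and 32.1% of its 50-base stretches are shared with other genes, Gm9207 and Leng1. Cnot9, which binds recruiting proteins, had 49.6 and 91.5 TPM, and Cnot4, a ubiquitin ligase associated with the complex, had 103.3 and 126.3 TPM. In all, 2 of the 11 subunits, 18.2%, were called higher in PB2, near the 18.9% of all genes, and 0 higher in the zygote, beside 8.09%. With the GC trend removed 1 was called towards PB2, beside 9.08% of all genes, and 0 towards the zygote, beside 11.0%. The group median was 0.39 (order-statistic interval from -0.57 to 1.39). It was 0.35 with the GC trend removed, 0.18 when centred on the median of all genes and 0.049 with the length trend removed. The summed TPM of the complex was 927.2 in the zygote and 1332.9 in PB2, 1.44-fold higher in PB2.

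**Figure D2:**
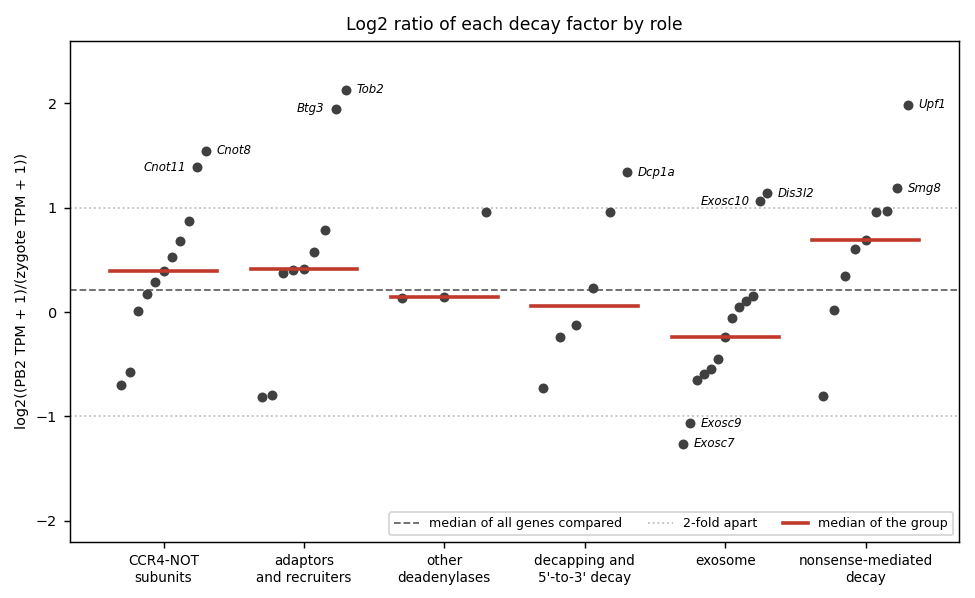
Log2 ratio of the 51 decay genes compared, by role, where values above 0 are higher in PB2. Red bars are group medians, the dashed line is the median of all genes compared (0.21) and dotted lines mark 2-fold; the 11 genes past 2-fold are named.

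Adaptors of the Btg and Tob family link CCR4-NOT to its targets through Cnot7 and Cnot8. Tob2, which also contacts the poly(A)-binding protein, had 23.8 TPM in the zygote against 107.5 in PB2, the highest log2 ratio of all decay genes, 2.13. Its paralogue Tob1 was low, at 1.8 and 2.7 TPM. Btg3 had 2.7 TPM in the zygote against 13.3 in PB2, a ratio between 4.82 and 5.04 and a log2 ratio of 1.95. Part of the Btg3 transcript overlaps Cxadr on the other strand, and 30.5% of its 50-base stretches occur in Cxadr or other genes. Cxadr had 0.8 TPM in the zygote against 2.3 in PB2, and its part in the Btg3 value was not tested.
Btg2 differed in the same direction as Btg4. It had 48.0 TPM in the zygote against 27.2 in PB2, a log2 ratio of -0.80 beside -0.81 for Btg4, and Btg4 exceeded it 347-fold in the zygote and 348-fold in PB2. Btg1 had 4.4 and 6.0 TPM. Btg4 therefore held nearly all of the family's transcripts in both libraries, and its excess over Cnot7 was 50.5-fold in the zygote and 28.6-fold in PB2.

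The RNA-binding recruiters described here were under 2-fold. Pum2, a Pumilio protein that represses transcripts through their 3′ UTR, had 43.7 TPM in the zygote against 65.5 in PB2, a log2 ratio of 0.57. Zfp36l2, which binds AU-rich elements and is known for a role in oocyte maturation, had 1.9 and 4.0 TPM, a ratio between 2.03 and 2.19 that fell under 2-fold with the pseudocount (log2 ratio 0.79, and 0.13 with the GC trend removed). Of the 9 adaptors and recruiters, 2 were called higher in PB2, 22.2% beside 18.9% of all genes, and 0 higher in the zygote, beside 8.09%. Their median log2 ratio was 0.41, and 0.13 with the length trend removed.

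Pan2, Pan3 and Parn, deadenylases outside CCR4-NOT, included no called gene. Of all genes 18.9% were called towards PB2 and 8.09% towards the zygote, and 3 genes are too few to set against these shares. Pan2, the catalytic subunit of Pan2-Pan3, had 60.0 TPM in the zygote against 117.7 in PB2, a ratio of 1.96 and a log2 ratio of 0.96, just under the 2-fold limit. Its partner Pan3 had 28.8 and 31.9 TPM, so that Pan2 made up 67.6% of the pair in the zygote and 78.7% in PB2. Parn, a deadenylase that interacts with the cap, had 29.3 and 32.3 TPM.

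Decapping showed a contrast between the catalytic subunit and its activator. Dcp2, which removes the cap, had 92.0 TPM in the zygote against 55.0 in PB2, 1.67-fold higher in the zygote with a log2 ratio of -0.73. Dcp1a, its activator, had 114.9 TPM in the zygote against 292.2 in PB2, 2.54-fold higher in PB2 with a log2 ratio of 1.34. The level of Dcp1a was 1.25 times that of Dcp2 in the zygote and 5.31 times in PB2. The second Dcp1 paralogue, Dcp1b, was low in both libraries at 1.4 and 1.2 TPM.
Edc4, a scaffold that enhances decapping, had 23.9 TPM in the zygote against 47.3 in PB2, a log2 ratio of 0.96 that was 0.24 with the trend on GC content removed. The 5′ exonucleases differed little. Xrn2, which acts mainly in the nucleus, had 91.0 and 107.2 TPM, and Xrn1, the cytoplasmic enzyme that digests decapped RNA, had 4.8 and 3.9 TPM. Of the 6 genes 1, Dcp1a, was called towards PB2, 16.7% beside 18.9% of all genes, and 0 towards the zygote, beside 8.09%. The group median was 0.05. That sign turned with the trend on transcript length removed (-0.30), with centring on the median of all genes (-0.16) and with scaling of the zygote values (-0.01).

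**Figure D3:**
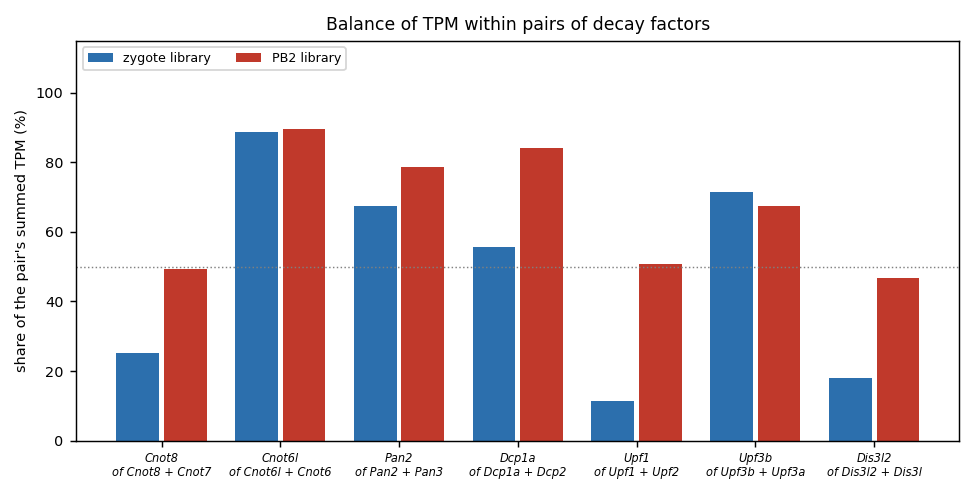
Share of the first-named gene in the summed TPM of 7 pairs of decay genes, as a percentage in the zygote library (blue) and the PB2 library (red); the dotted line marks 50%. Cnot8, Dcp1a, Upf1 and Dis3l2 held larger shares in PB2, while the share of Cnot6l was close in both libraries.

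The exosome had the lowest median log2 ratio of the role groups, -0.24. The 8 ring and cap subunits analysed, which form its barrel, had log2 ratios between -1.26 and 0.16, each below the median of all genes compared, with a median of -0.39. They were set apart from the nucleases after the values were seen. Exosc7, a ring subunit, had 186.5 TPM in the zygote against 77.2 in PB2, 2.42-fold higher in the zygote with a log2 ratio of -1.26. Exosc9 had 33.9 TPM in the zygote against 15.7 in PB2, 2.16-fold higher in the zygote with a log2 ratio of -1.06.
The end of Exosc9 overlaps Ccna2 on the other strand, and 18.2% of its 50-base stretches occur there. Ccna2 had 97.4 TPM in the zygote against 379.9 in PB2, a difference in the opposite direction from that of Exosc9, and whether counting used strand is not stated in the sources used here.

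Among the remaining ring and cap subunits levels were very unequal. Exosc1 had 196.0 TPM in the zygote against 165.9 in PB2, Exosc3 had 181.7 and 124.1 TPM, and Exosc8 had 109.5 and 69.2 TPM. Exosc4 had 14.0 and 14.5 TPM, Exosc2 6.3 and 6.0 TPM, and Exosc5 1.6 and 1.9 TPM. The log2 ratios of Exosc4 and Exosc5, 0.05 and 0.16, turned to -0.61 and -0.52 once the GC trend was removed. Although these proteins occur once each in the complex, Exosc1 exceeded Exosc5 122.5-fold in the zygote and 87.3-fold in PB2. More than 10% of the 50-base stretches of Exosc4 and Exosc5 occur in other genes, among them Oplah and Tmem91.
The nucleases of the 3′ pathway went in both directions. Exosc10, the nuclear exonuclease of the exosome, had 8.8 TPM in the zygote against 19.5 in PB2, a log2 ratio of 1.06. Dis3l2, which digests uridylated RNA without the exosome, had 2.0 TPM in the zygote against 5.6 in PB2, a ratio between 2.71 and 2.90 and a log2 ratio of 1.14. Dis3, the nuclear catalytic subunit, had 3.1 and 3.4 TPM, and Dis3l, its cytoplasmic counterpart, had 9.1 and 6.4 TPM. Dis3l2 was 18.0% of the Dis3l2 and Dis3l total in the zygote and 46.7% in PB2. Over all 13 genes of the group 2 were called in each direction, 15.4% beside 18.9% of all genes towards PB2 and 8.09% towards the zygote. Of the group, 2 lay above the overall median, and the group median was negative under every alternative tried. With the GC trend removed 0 were called towards PB2, beside 9.08% of all genes, and 3 towards the zygote, beside 11.0%. These 3 were Exosc7, Exosc8 and Dis3l.

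Nonsense-mediated decay had the highest group median, 0.69, with 2 of 9 genes called higher in PB2, 22.2% beside 18.9% of all genes, and 0 higher in the zygote, beside 8.09%. With the GC trend removed 1 gene was called towards PB2, beside 9.08% of all genes, and 0 towards the zygote, beside 11.0%. The group median was then 0.54, and it was 0.36 with the length trend removed. Upf1, the helicase at the centre of the pathway, had 5.1 TPM in the zygote against 23.2 in PB2, a ratio of 4.55 and a log2 ratio of 1.99. Upf2, the adaptor that activates it, had 40.1 TPM in the zygote against 22.6 in PB2, a log2 ratio of -0.80 that was not 2-fold. Upf1 thus stood at 0.127 times the level of Upf2 in the zygote and at 1.03 times in PB2. The paralogues that bridge Upf2 to the exon junction kept a similar balance, with Upf3b at 61.0 and 77.7 TPM and Upf3a at 24.2 and 37.3 TPM.
Smg1, the kinase that phosphorylates Upf1, had 5.4 and 5.5 TPM. Smg8, a regulator of Smg1, had 20.8 TPM in the zygote against 48.6 in PB2, a log2 ratio of 1.19, and Smg9, the other regulator, had 0.5 and 0.9 TPM. Smg5 and Smg6, which act on phosphorylated Upf1 or its target, had more TPM in PB2 and were just under the limit. The endonuclease Smg6 had 8.1 and 16.8 TPM (log2 ratio 0.97), and Smg5 had 0.9 and 2.7 TPM (0.96, and 0.19 with the GC trend removed). For Smg5, whose TPM ratio lies between 2.79 and 3.24, the pseudocount kept the log2 ratio below 1.

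Transcripts rich in G and C tended to have higher log2 ratios, among the decay genes as in the whole table. Spearman's rho of the ratio with GC content reached 0.44 over 10606 genes and 0.39 over the 51 decay genes, all of which share the same 2 libraries and are no replicates. The median GC content was 48.5% for the decay genes and 49.1% for all genes compared. Of the decay genes compared, Upf1 had the highest GC content, 57.9%, and Cnot6l the lowest, 37.6%. With the trend on GC content removed, 5 decay genes were called towards PB2, 9.80% beside 9.08% of all genes, and 4 of 51 towards the zygote, beside 11.0% of all genes. Upf1 then had a log2 ratio of 1.13, Tob2 of 1.60, Cnot8 of 1.40, Dcp1a of 1.20 and Btg3 of 1.93. The exosome had a median GC content of 51.7%, above that of the table, so that removal of the trend lowered its median log2 ratio, to -0.52, and that of Exosc7, to -1.66. Its transcripts were short, with a median of 1686 nucleotides beside 3067 for all genes, and with the trend on length removed its median was -0.31. The part of GC content and length in the differences was not tested.

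**Figure D4:**
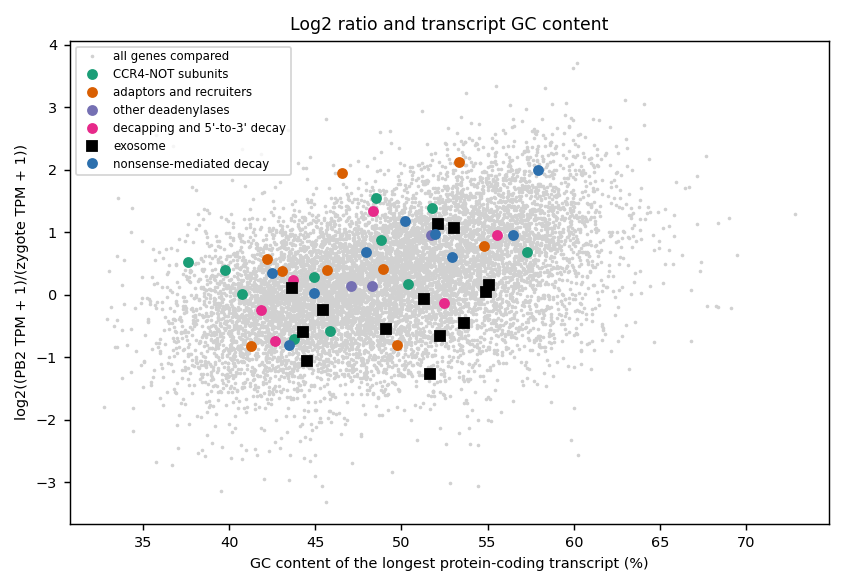
Log2 ratio against the GC content (%) of the longest protein-coding transcript, with all genes compared in grey and the decay genes coloured by role (exosome as black squares). The cloud of all genes rises with GC content, and most exosome genes lie in the lower part of the cloud at their GC content.

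Of the 11 genes past 2-fold, 5 stayed past it under each of the 9 other settings tried for single genes, namely Cnot8, Btg3, Tob2 and Upf1 towards PB2 and Exosc7 towards the zygote. Cnot11, Dcp1a, Smg8, Exosc10, Dis3l2 and Exosc9 fell under it in at least 1 setting, in the same direction. They did so only with the GC or length trend removed, with centring or with scaling of the zygote values. Of the other settings, changing the filter leaves the ratio of a called gene as it is, and a smaller pseudocount can only enlarge it. Those settings could not bring a called gene under 2-fold.

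Further genes of the pathway were taken from hand-written lists of 74 symbols, of which 63 could be compared. The lists held decapping cofactors, exosome cofactors, partners of nonsense-mediated decay, partners of deadenylation and enzymes that tail 3′ ends. Of the 63, 16 were called higher in PB2, 25.4% beside 18.9% of all genes, and 6 higher in the zygote, 9.52% beside 8.09%. Their median log2 ratio was 0.27 beside 0.21. With the GC trend removed 8 were called towards PB2 and 6 towards the zygote, beside 9.08% and 11.0% of all genes.
Of the 17 partners of deadenylation, 8 were called towards PB2, 47.1% beside 18.9% of all genes, and 0 towards the zygote, beside 8.09%. The median was 0.93. With the GC trend removed 3 were called towards PB2 and 1 towards the zygote, beside 9.08% and 11.0% of all genes. Pde12, a mitochondrial deadenylase, had 2.0 and 13.3 TPM, a log2 ratio of 2.25. Among them Tnks1bp1, which associates with CCR4-NOT, had 4.1 TPM in the zygote against 15.9 in PB2. Nanos1 and Nanos2, which recruit CCR4-NOT to germline transcripts, had 10.6 and 36.6 TPM in the zygote and 36.5 and 98.9 TPM in PB2. Tnrc6c, which links Argonaute to CCR4-NOT, had 3.8 and 13.3 TPM, while Tnrc6b had 15.7 and 19.2 TPM and Tnrc6a 3.0 and 2.7 TPM. Pabpn1l, an egg poly(A)-binding protein that works with Btg4, had 435.3 TPM in the zygote against 327.7 in PB2, lower in PB2 like Btg4 and under 2-fold.

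Decapping cofactors were called 3 times in each direction among 15 genes, with a median of -0.15. The Lsm1 to Lsm7 ring, which binds shortened tails ahead of decapping, accounted for the 3 called towards the zygote. Lsm7 had 471.6 TPM in the zygote against 182.6 in PB2, Lsm3 had 70.1 and 32.0 TPM, and Lsm5 had 105.0 and 48.1 TPM. Lsm1, Lsm2 and Lsm6 had log2 ratios between -0.76 and -0.54, and Lsm4, with 6.6 and 14.8 TPM, was called towards PB2. With the GC trend removed Lsm5 (-0.63) and Lsm4 (0.13) were under 2-fold, while Lsm2 (-1.01) passed it. The ring was not one of the hand-written lists. Most of these Lsm transcripts are short like those of the exosome ring, with a median of 925 nucleotides. Pnrc1, a decapping coactivator, had 104.4 TPM in the zygote against 445.0 in PB2. Ddx6, the helicase that joins deadenylation to decapping, had 12 and 10.7 TPM.
Of 13 partners of nonsense-mediated decay, 1 was called towards PB2, 7.69% beside 18.9% of all genes. Towards the zygote 0 were called, beside 8.09%. The median was 0.00 beside 0.69 for the Upf and Smg genes, a difference that was not tested. The called gene was Rnps1, a splicing-dependent activator, at 170.9 TPM in the zygote against 382.2 in PB2. Magoh, of the exon junction complex, was abundant in both libraries at 3507.0 and 3351.7 TPM.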

How the data were processed

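Polyadenylated RNA of PB2s and of zygotes was amplified as cDNA and sequenced, with 1 library each. Per the study's methods and the submitters' processing notes, the authors aligned reads with HISAT2 2.0.4, counted genes with HTSeq 0.6.1p1 on an Ensembl annotation and normalized counts with DESeq2 1.18.1. The methods name OryCun2.0 (rabbit) as the reference and the notes name GRCm38 (mouse) too, while the identifiers in the table are those of mouse genes, and which build was used cannot be told. The deposited values are TPM, and the step from counts to TPM is not given in the sources used here. Columns were matched to samples by name, with 0 left over. The table sums to 89.8% of a full library in PB2 and 92.7% in the zygote, and depth is unknown.

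Genes with at least 1 TPM in either library were compared by log2 ratio with a pseudocount of 1. Transcripts, GC content and positions came from GENCODE M21 by identifier (11246 of 11262 found, 11221 with a protein-coding transcript, the longest being used), and trends were loess fits with a span of 0.3. Transcripts were compared with all others by shared 50-base stretches on either strand. Functions were tested on simulated data. Computation used pandas 2.3.3 and numpy 2.4.6 in Python 3.11.15, with loess from statsmodels 0.14.6, order-statistic intervals from scipy 1.17.1 and plots from matplotlib 3.10.9.

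The genes, role groups, lists and alternatives were chosen with earlier results of these data known. Full values were to be given for the 10 most abundant decay genes, those past 2-fold and paralogue families; the others were named afterwards, and some single genes are counted in their groups but not reported here. Mpp6 was dropped from the exosome cofactor list because in mouse this symbol names a palmitoylated membrane protein. A count was taken as moved beyond 1.5 times, a median outside its order-statistic interval, and a sum or single gene beyond 0.5 on the log2 scale.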

Additional observations from a re-analysis of the deposited data

How the results depend on the processing

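No paired analysis was possible because PB2 and the zygote had 1 library apiece, and no replicate could be left out. Under the alternatives, 143 of 162 summary values stayed within the limits set and 19 moved. Of 449 log2 ratios of single genes 12 moved, and none of the 11 called genes changed direction. Many of the 449 could not move. Changing the filter leaves a single ratio as it is. Centring (by 0.21) and scaling of the zygote (by a factor of 1.0573) shift it by less than the limit of 0.5. A called gene could not change direction under these settings or under a smaller pseudocount. Among genes not called, 11 changed sign in at least 1 alternative, with the GC trend removed Cnot3 (0.68 to -0.14), Exosc5 (0.16 to -0.52), Exosc4 (0.05 to -0.61) and Cnot10 (0.17 to -0.14). The number of decay genes higher in PB2 (9) was 5 with the GC trend removed and 5 with the length trend removed, 18 at 1.5-fold and 1 at 4-fold. The number higher in the zygote (2) was 4 with the GC trend removed, 6 with the length trend removed, 5 with ratios centred on the median of all genes, 9 at 1.5-fold and 0 at 4-fold. It was 1 without the 7 genes sharing over 10% of their 50-base stretches with another gene, chosen after seeing the data, which takes out Exosc9. The median over the decay genes was 0.023 with the length trend removed. The 3 deadenylases outside CCR4-NOT had a median of 0.090 with the GC trend removed, -0.19 with the length trend removed, -0.067 when centred, 0.065 with zygote values scaled and 0.12 without the 50 most abundant genes and those encoded by mitochondria. At a threshold of 10 TPM 32 genes were expressed in both libraries. The log2 ratio of the summed TPM changed sign from -0.60 to 0.29 without those abundant and mitochondrial genes and to 0.31 without Mphosph6 and Btg4, the latter chosen after seeing the data, because these genes hold most of the sum. Centring lowers every ratio by the overall median of 0.21, while removal of a trend moves genes by different amounts and in both directions. With depth unknown, the error of genes with a few TPM, such as Smg5, Dis3l2 and Btg3, cannot be given.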

Other observations

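Enzymes that add nucleotides to 3′ ends, poly(A) polymerases and uridylyltransferases alike, had a median log2 ratio of 0.70 over 6 genes, beside 0.21 for all genes compared. The order-statistic interval, from -0.61 to 3.71, covers the whole range of the 6, and the median was 0.36 with the length trend removed. Towards PB2 2 were called, 33.3% beside 18.9% of all genes, and towards the zygote 0, beside 8.09%. Tent5b, a noncanonical poly(A) polymerase, had 34.4 TPM in the zygote against 462.8 in PB2, and Tut1, a terminal uridylyltransferase acting on U6 RNA, had 12.1 and 70.8 TPM. Tent2, the cytoplasmic poly(A) polymerase Gld2, had 105.2 and 198.9 TPM, a log2 ratio of 0.91 under the 2-fold limit. Tut7, which uridylates shortened tails, had 31.7 and 39.5 TPM. Tent5c, another noncanonical poly(A) polymerase, had 196.3 and 275.3 TPM. Mtpap, the mitochondrial poly(A) polymerase, went the other way at 209.4 and 136.5 TPM, a log2 ratio of -0.61.

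Cofactors of the exosome were called in both directions. Towards PB2 there were 2 of 13, 15.4% beside 18.9% of all genes, and towards the zygote 3, 23.1% beside 8.09%. Mtrex, the nuclear RNA helicase that feeds the exosome, had 38.9 TPM in the zygote against 11.7 in PB2, and C1d, which binds Exosc10, had 3.7 and 0.5 TPM. The SKI complex guides RNA to the cytoplasmic exosome, and its subunits diverged: the helicase Skiv2l had 1.7 TPM in the zygote against 7.3 in PB2, Ttc37 had 70.1 and 33.8 TPM, and Wdr61 had 11.9 and 8.2 TPM. Tent4a, a nuclear tailing enzyme, had 51.5 and 121.3 TPM.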
